A study of Mus musculus with 4 samples.

Results

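The 9 craniofacial homeobox genes Msx1, Msx2, Dlx1, Dlx2, Dlx5, Prrx1, Prrx2, Alx1 and Alx4 were followed in cultured whisker follicle mesenchyme of the mouse. They were chosen by name, as the rows of the raw count table that carried one of the 9 symbols, and each symbol matched 1 row among 51826 genes. All 9 averaged 10 or more raw reads over the libraries, as did 16734 genes in all, and these 16734 served as the background. The study grew dermal papilla cells (DPCs), from the mesenchymal bud at the base of the follicle, and dermal sheath cells (DSCs), from the connective tissue sleeve around it, and compared them early and late in culture. RNA from each cell type was sequenced at passage 3 (low passage) and passage 9 (high passage), with 1 library for each of the 4 groups. The labels give every group the genotype WT and list no treatment other than the passage, while the methods of the study describe EGFP-transgenic C57BL/6J mice aged 5 to 6 weeks whose vibrissa follicles were dissected from the cheeks. How many mice or cultures stood behind each library is not given in the sources used here. With 1 library for each group there was no replicate error and no test could be made, so each comparison below is between 2 libraries and not between 2 conditions.

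Homeobox genes encode transcription factors that bind DNA through a homeodomain, a compact fold of 3 helices. In the embryo the mesenchyme of the face comes from cranial neural crest, and members of the Msx, Dlx, Prrx and Alx families are expressed there in overlapping territories that pattern the jaws, the frontonasal region and the skull vault. Msx and Dlx genes are classic targets of bone morphogenetic protein (BMP) signals, Dlx5 and its neighbour Dlx6 lie downstream of endothelin 1 in the lower jaw, and Alx and Prrx genes encode the paired-type class of homeodomain. Facial crest cells also form without Hox gene expression, which marks more posterior parts of the body.

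The homeoboxes show how close the members of a family are to each other, which bears on whether reads can be told apart between them. A homeobox of 180 bases, encoding 60 residues, was found in the coding sequence of all 9 genes in GENCODE M21 (GRCm38). Dlx5, Alx1 and Msx2 passed 2-fold between the passages of a cell type. For Dlx5 and Alx1 (a choice made after their values were seen) the homeobox is printed 5′ to 3′ on the coding strand. It stands beside that of a relative in the same family, with capitals at the bases where the pair differ.
Dlx5: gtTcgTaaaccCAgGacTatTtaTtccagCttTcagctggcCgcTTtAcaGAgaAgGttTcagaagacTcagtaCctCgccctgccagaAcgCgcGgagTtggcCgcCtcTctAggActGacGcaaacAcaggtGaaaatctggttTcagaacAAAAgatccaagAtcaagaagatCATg
Dlx2: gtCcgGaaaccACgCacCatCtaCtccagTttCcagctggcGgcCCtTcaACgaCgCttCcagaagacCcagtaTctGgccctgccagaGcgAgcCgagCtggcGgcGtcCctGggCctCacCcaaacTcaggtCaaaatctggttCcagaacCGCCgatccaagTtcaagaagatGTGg
Alx1: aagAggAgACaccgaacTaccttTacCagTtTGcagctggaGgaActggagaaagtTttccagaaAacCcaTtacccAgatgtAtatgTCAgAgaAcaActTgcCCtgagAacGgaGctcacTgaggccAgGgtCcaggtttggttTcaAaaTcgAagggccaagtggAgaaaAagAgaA
Alx4: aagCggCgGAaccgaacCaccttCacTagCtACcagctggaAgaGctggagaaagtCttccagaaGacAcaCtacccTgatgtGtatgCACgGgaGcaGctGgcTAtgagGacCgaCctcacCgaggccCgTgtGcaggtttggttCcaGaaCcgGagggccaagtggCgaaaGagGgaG

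The Dlx5 homeobox lay in exons 2 and 3 of 3 (chr6:6878441-6879657, minus strand, intron included) and differed from that of Dlx2 (chr2:71544877-71545515, minus strand) at 44 bases, which changed 4 encoded residues. The homeobox of Alx1 (exons 2 and 3 of 4, chr10:103022264-103025272, minus strand) and that of Alx4 (chr2:93668528-93675337, plus strand) differed at 42 bases and 5 residues. Prrx1 and Prrx2 were closer, with 78.9% identical bases and 2 altered residues. The longest run of identical bases was 17 between the Prrx homeoboxes and 12 between those of Alx1 and Alx4. Over whole transcripts, no stretch of 50 bases was shared between any 2 of the 9 genes. Msx1, Dlx2, Dlx5 and Prrx2 shared none with any other gene either. Msx2, Prrx1 and Alx4 shared 0.465%, 0.171% and 0.156% of their windows with other genes. The shares were larger for Dlx1 and Alx1: 5.19% of the 50-base windows of Dlx1 were also found in the antisense RNA Dlx1as, and 3.29% of those of Alx1 in Gm17028, a gene model on the same strand. Dlx1as had 11 and 19 reads in low- and high-passage DPCs and 26 and 25 in low- and high-passage DSCs, which is of the order of the Dlx1 reads themselves in DPCs, and strand use in the counting is not given in the sources used here. Reads of Dlx1 and Dlx1as therefore cannot be told apart with certainty. Prrx1 overlaps the gene models Gm26523 and Gm37644 on its own strand, which had at most 21 reads, and Alx4 overlaps the span of Ext2 on the other strand, which had 5878 to 9499 reads.

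The libraries held 34981284 to 47604059 counted reads, the most in high-passage DSCs, and TMM factors lay between 0.957 and 1.041. Levels are given as CPM, read counts scaled to a common library size with TMM factors, for comparing libraries and as the deposited FPKM, which is per transcript length, for comparing genes. The intervals printed are exact 95% Clopper-Pearson intervals of read counts and cover counting error only, since reads without molecular identifiers are not independent molecules. Of 9 fibroblast and mesenchyme markers, 8 had at least 3281 reads in every library (Vim 51683 to 75941), although Col1a1 (266500 and 43703 reads) and Col3a1 (45727 and 5565) were lower in high-passage than in low-passage DPCs, and Lum had 8 and 0 reads in DPCs and 0 and 109 in DSCs. Among keratinocyte and hair markers Krt5, Krt14, Krt15, Cdh1, Krt31 and Krt35 were at 0 in all 4 libraries, while the basal keratinocyte factor Trp63 had 10 to 35 reads and Gata3 had 30 to 139. Markers of the dermal papilla were uneven. Sox2 was higher in DPCs (1677 and 1491 reads at low and high passage) than in DSCs (269 and 178). Ncam1 was lower in DPCs (3642 and 1673 reads) than in DSCs (11755 and 15584). Lef1 had 508 reads in low-passage and 2 in high-passage DPCs, the papilla enzyme Alpl had 6 to 23 reads in every library, and Corin had 0 to 10.

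Prrx1 and Prrx2 were the most abundant members in every library and Alx4 was always next, whereas Dlx1 and Dlx5 were the lowest in 3 of the 4 libraries. By FPKM, Prrx1 stood at 81.8 and 94.8 in DPCs at passages 3 and 9 and at 44.9 and 80.9 in DSCs at the same passages. This placed it at the 91.6th to 96.6th percentile of the 16734 background genes. Msx2 came next (2.46 to 6.54 FPKM), with Alx1 close to it in high-passage DPCs. Below Msx2 the order differed: Dlx5 was among the lowest pair in low-passage DSCs (0.189 FPKM) and was the fifth in high-passage DSCs (2.50 FPKM). Close neighbours in these orders were not ranked. In high-passage DSCs Prrx1 and Prrx2 stood at 80.9 and 79.8 FPKM, and in low-passage DSCs Dlx1 and Dlx5 at 0.191 and 0.189 FPKM. In high-passage DPCs Msx2 and Alx1 stood at 3.22 and 3.12 FPKM.

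**Figure D1:**
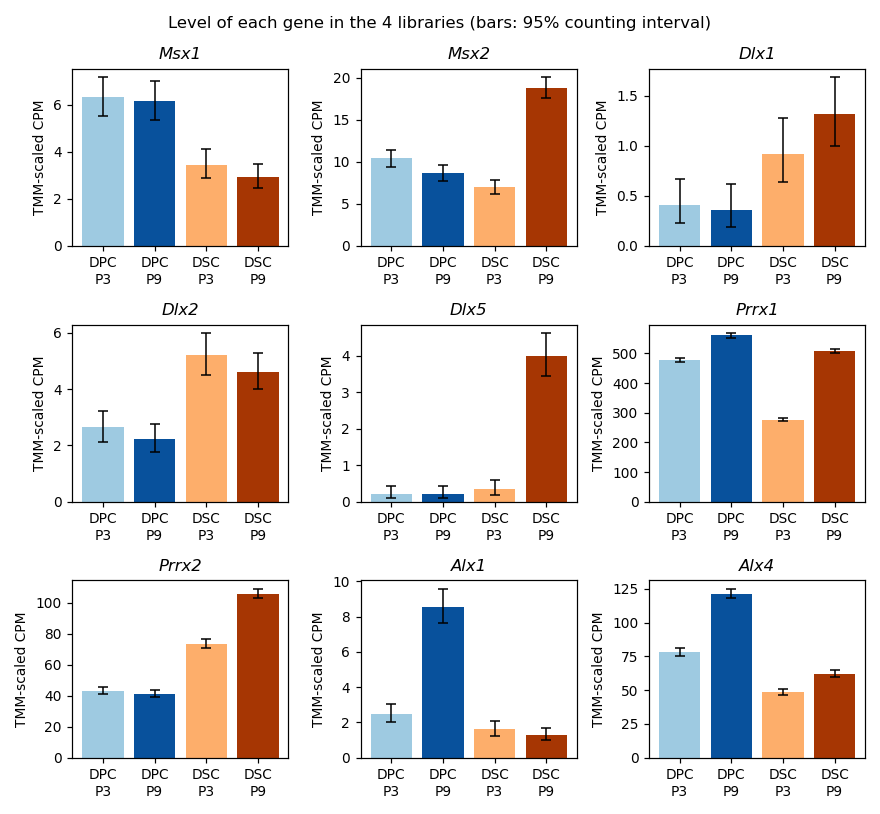
TMM-scaled CPM of each of the 9 genes (y axes start at 0 and differ between panels) in DPCs and DSCs at passage 3 (P3) and passage 9 (P9), with 1 library a bar and 95% counting intervals as error bars. Dlx5 stands at 3.99 CPM in high-passage DSCs and at 0.217 to 0.343 CPM elsewhere, and Alx1 at 8.55 CPM in high-passage DPCs and at 1.29 to 2.50 CPM elsewhere.

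Prrx1 and Prrx2, paired-related factors that mark limb and craniofacial mesenchyme, were unequally distributed between the cell types. Prrx1 (ENSMUSG00000026586, chr1:163245119-163313710, minus strand) had 17546 and 20137 reads in DPCs at passages 3 and 9, and 10490 and 23213 in DSCs. Only low-passage DSCs stood clearly below the other 3 libraries. Scaled to library size, the high-passage DSC library was 0.88 above the low-passage one on the log2 scale (interval 0.85 to 0.91), while the same difference in DPCs was 0.23 (interval 0.21 to 0.26). Prrx2 (ENSMUSG00000039476, chr2:30834972-30881251, plus strand) had 1589 and 1480 reads in low- and high-passage DPCs and 2794 and 4820 in low- and high-passage DSCs, so both DSC libraries lay above both DPC libraries. On the log2 scale Prrx2 was 0.77 lower in DPCs than in DSCs at passage 3 (log2 fold change -0.77, interval -0.86 to -0.68) and 1.36 lower at passage 9 (log2 fold change -1.36, interval -1.44 to -1.27). Within a library, where scaling plays no part, Prrx1 took 91.7% and 93.2% of the reads of the pair in low- and high-passage DPCs and 79.0% and 82.8% in low- and high-passage DSCs. The intervals of the DPC and DSC shares did not overlap.

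Alx1 and Alx4 encode aristaless-like factors of the frontonasal mesenchyme and skull, and both were higher in DPCs than in DSCs at either passage. Alx4 (ENSMUSG00000040310, chr2:93642384-93681339, plus strand) had 2872 and 4346 reads in DPCs at passages 3 and 9, and 1839 and 2837 in DSCs. The high-passage library was above the low-passage one in both cell types, by 0.63 on the log2 scale in DPCs (interval 0.57 to 0.70) and by 0.36 in DSCs (interval 0.28 to 0.45). Alx1 (ENSMUSG00000036602, chr10:102998707-103030215, minus strand) had 92 and 307 reads in DPCs at passages 3 and 9, and 61 and 59 in DSCs. Here 1 library stood apart from the rest. Alx1 was 3.37-fold higher at passage 9 than at passage 3 in DPCs (log2 fold change 1.75, interval 1.43 to 2.13), and its level in the DSC libraries differed by less than counting error (log2 fold change -0.30, interval -0.85 to 0.23). Between cell types at passage 9 it was 6.39-fold higher in DPCs (log2 fold change 2.68, interval 2.32 to 3.15). Its share of the reads of the Alx pair was 6.60% in high-passage DPCs and 2.04% to 3.21% in the other 3 libraries. The overlapping Gm17028 had 6 and 23 reads in DPCs and 0 and 5 in DSCs, far below those of Alx1 but also highest in high-passage DPCs.

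Msx1 and Msx2, homeobox repressors that respond to BMPs and act in tooth, skull and hair formation, went different ways. Msx1 (ENSMUSG00000048450, chr5:37820485-37824583, minus strand) had 232 and 220 reads in low- and high-passage DPCs and 131 and 133 in low- and high-passage DSCs. The level was thus set apart by cell type. It was 1.81-fold higher in DPCs at passage 3 (log2 fold change 0.86, interval 0.55 to 1.19) and 2.08-fold higher at passage 9 (log2 fold change 1.06, interval 0.75 to 1.39), while both passage differences lay within counting error. Msx2 (ENSMUSG00000021469, chr13:53466884-53473074, minus strand) had 381 and 309 reads in DPCs at passages 3 and 9, and 264 and 857 in DSCs. High-passage DSCs were the high library. There Msx2 was 2.69-fold above low-passage DSCs (log2 fold change 1.43, interval 1.23 to 1.64), whereas high-passage DPCs were slightly below low-passage DPCs (log2 fold change -0.26, interval -0.49 to -0.05). Msx2 was the only member whose order between the cell types turned over, from 1.48-fold higher in DPCs at passage 3 to 2.18-fold lower at passage 9. Msx1 accounted for 33.2% to 41.6% of the reads of the Msx pair in the other 3 libraries and for 13.4% (interval 11.4% to 15.7%) in high-passage DSCs.

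**Figure D2:**
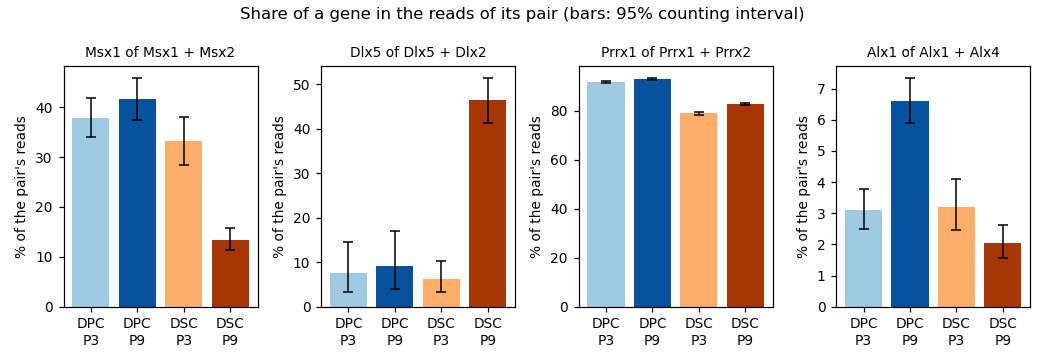
Share of the first-named gene in the summed reads of a pair (y axis, percent, from 0) in each of the 4 libraries, with 95% Clopper-Pearson counting intervals as error bars. The Msx1 share is lowest (13.4%) and the Dlx5 share highest (46.4%) in high-passage DSCs, the Alx1 share is highest in high-passage DPCs (6.60%), and the Prrx1 share is 91.7% and 93.2% in DPCs against 79.0% and 82.8% in DSCs.

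Dlx1, Dlx2 and Dlx5, distal-less relatives that pattern the branchial arches along their upper to lower axis, all had higher levels in DSCs than in DPCs. For Dlx5 at passage 3 the difference lay within counting error. Dlx1 (ENSMUSG00000041911, chr2:71528113-71533981, plus strand) and Dlx2 (ENSMUSG00000023391, chr2:71543408-71546754, minus strand) are neighbours with 9426 bases between them. Dlx2 had 97 and 80 reads in low- and high-passage DPCs against 198 and 210 in low- and high-passage DSCs. The cell types did not overlap, and the passages within a cell type differed by less than counting error. Dlx2 was 1.96-fold lower in DPCs at passage 3 (log2 fold change -0.97, interval -1.35 to -0.63) and 2.04-fold lower at passage 9 (log2 fold change -1.03, interval -1.44 to -0.67). Dlx1 followed the same order at lower depth, with 15 and 13 reads in low- and high-passage DPCs and 35 and 60 in low- and high-passage DSCs. Its log2 fold change of DPCs over DSCs was -1.09 at passage 3 (interval -2.16 to -0.27) and -1.73 at passage 9 (interval -2.85 to -0.98). The deposited FPKM of Dlx1 separated the cell types less at passage 3 (0.158 in DPCs against 0.191 in DSCs), so the size of its difference at that passage depended on which deposited value was used.

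Dlx5 (ENSMUSG00000029755, chr6:6877805-6882085, minus strand), which patterns the lower jaw and promotes bone formation, gave the largest difference among the members. It had 8 reads in each of the DPC libraries, 13 in DSCs at passage 3 and 182 in DSCs at passage 9. High-passage DSCs were thus the only library with more than 13 reads. In DSCs Dlx5 was 10.3-fold higher at passage 9 than at passage 3 (log2 fold change 3.36, interval 2.73 to 4.48), and 0.896% of the 16734 background genes had a higher fold change in that comparison. At passage 9 it was 14.8-fold lower in DPCs than in DSCs (log2 fold change -3.88, interval -5.40 to -3.15). Between low- and high-passage DPCs a difference was not detectable at this depth (log2 fold change 0.03, interval -1.58 to 1.65). Against Dlx2 in the same library, Dlx5 made up 6.16% to 9.09% of the reads of both genes in 3 libraries and 46.4% (interval 41.4% to 51.5%) in high-passage DSCs. Dlx6, which lies 9236 bases from Dlx5 and is usually expressed with it, had 0 reads in both DPC libraries and 1 and 8 in DSCs at passages 3 and 9, and the antisense RNA Dlx6os1 had 12 reads in high-passage DSCs and 0 elsewhere. In bulk RNA a larger number of Dlx5-expressing cells and more Dlx5 RNA in each cell cannot be told apart, and the same holds for every difference here.

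With passage in DPCs, 0 of the 9 members passed 4-fold in either direction, where 5.58% of the background genes did so as higher and 4.36% as lower. At the 2-fold threshold Alx1 was the only member called, as higher, against 16.1% of background genes higher and 15.0% lower. The median absolute log2 fold change of the members was 0.23, compared with 0.62 over the background genes. In DSCs, Dlx5 was the only member past 4-fold, as higher, a call made for 2.67% of background genes, with 1.16% called as lower. Msx2 joined it at 2-fold (background 8.55% higher and 6.21% lower). The median absolute log2 fold change with passage in DSCs was 0.49 for the members and 0.34 for the background genes.

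**Figure D3:**
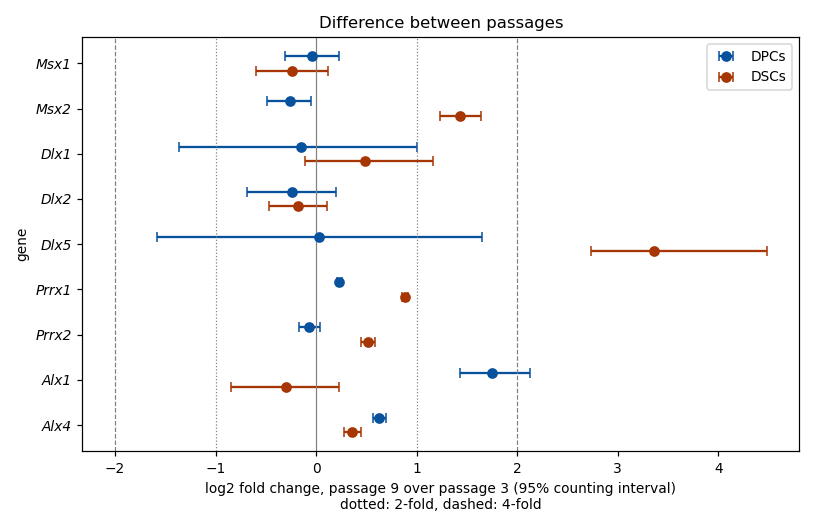
log2 fold change of passage 9 over passage 3 (x axis) for each gene in DPCs (blue) and DSCs (brown), with 95% counting intervals as bars, dotted lines at 2-fold and dashed lines at 4-fold. In DPCs Alx1 (1.75) is the only gene beyond a dotted line, and in DSCs Msx2 (1.43) and Dlx5 (3.36) are.

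The difference between the passage changes of the cell types was largest for Dlx5, at -3.33 on the log2 scale (DPCs minus DSCs, Wald counting interval -5.14 to -1.88). It was 2.06 for Alx1 (interval 1.47 to 2.70) and -1.69 for Msx2 (interval -1.99 to -1.41). Among background genes 2.36%, 7.03% and 10.5% had a larger absolute difference than Dlx5, Alx1 and Msx2, in that order. For Msx1, Dlx1 and Dlx2 the interval of the difference included 0.

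At the median the members differed more between the cell types than between the passages of either. At passage 3, 0 of 9 were past 4-fold (background 1.52% higher and 2.77% lower in DPCs), and Dlx1 was the only one past 2-fold, as lower in DPCs (background 7.86% lower and 5.43% higher). The median absolute log2 fold change was 0.77 for the members and 0.28 for the background genes. At passage 9, Alx1 passed 4-fold as higher and Dlx5 as lower in DPCs (background 2.50% higher and 3.91% lower). At 2-fold, Msx1 and Alx1 were higher in DPCs, against 9.11% of background genes, and Msx2, Dlx1, Dlx2, Dlx5 and Prrx2 were lower, against 11.0%. Several of these lay close to the threshold, among them Msx1 (1.06) and Dlx2 (-1.03), with Alx4 (0.96) just outside it. The median absolute log2 fold change at passage 9 was 1.12 for the members and 0.42 for the background genes.

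The direction between cell types was the same at both passages for 8 of the 9 members and for 52.3% of the background genes. Msx1, Prrx1, Alx1 and Alx4 were higher in DPCs at both, Dlx1, Dlx2, Dlx5 and Prrx2 were lower in DPCs at both, and Msx2 was the exception. The interval at passage 3 included 0 for Dlx5. The absolute difference was larger at passage 9 than at passage 3 for 8 of 9 members and for 60.8% of background genes, with Prrx1 the exception (0.79 at passage 3 and 0.14 at passage 9). For Msx1, Dlx1 and Dlx2 the intervals at the 2 passages overlapped, so an increase was not detectable at this depth.

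**Figure D4:**
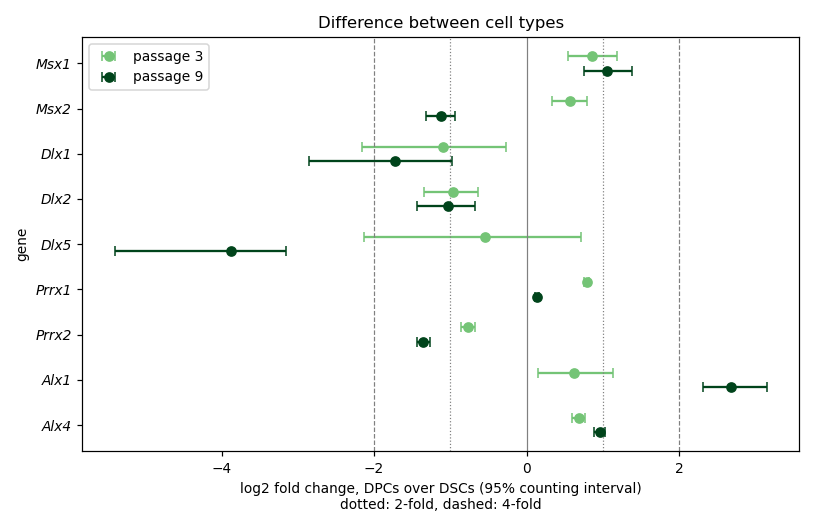
log2 fold change of DPCs over DSCs (x axis) for each gene at passage 3 (light green) and passage 9 (dark green), with 95% counting intervals as bars, dotted lines at 2-fold and dashed lines at 4-fold. At passage 9 Alx1 (2.68) and Dlx5 (-3.88) lie beyond the dashed lines, and Msx2 is the only gene on opposite sides of 0 at the 2 passages.

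Most relatives of the members outside the 9 were nearly silent, and those named at or near 0 were chosen after their values were seen. Msx3 had 0 reads in all 4 libraries, and Dlx3, a regulator of the hair matrix, had 0 in both DPC libraries and 4 and 5 in low- and high-passage DSCs. Dlx4 was the exception: it had 6 and 65 reads in DPCs and 2 and 26 in DSCs at passages 3 and 9. It was past 4-fold higher at passage 9 in both cell types (log2 fold changes 3.12, interval 2.27 to 4.97, and 2.58, interval 1.44 to 6.56). Dlx4 reached the count minimum only through the passage 9 libraries, so these calls are not read as a result. At passage 9 it was higher in DPCs than in DSCs (log2 fold change 1.58, interval 0.99 to 2.38). Of 34 other transcription factors of facial mesenchyme, 28 passed the count minimum, and their median log2 fold change with passage was 0.05 in DPCs and 0.03 in DSCs. In DPCs 1 of the 28 was past 4-fold as higher at passage 9 (Shox2, with 740 and 4113 reads) and 0 as lower, against 5.58% and 4.36% of background genes. In DSCs 2 were called as higher and 0 as lower, against 2.67% and 1.16%. These were Lhx8, a jaw and palate factor with 260 reads in high-passage DSCs and 0 in the other 3 libraries, and Tfap2c, a crest and ectoderm factor with 47 reads there and 0 elsewhere. Both passed the count minimum only through the library in which they were high, so their direction was fixed by that minimum. They and Shox2 were picked out after their values were seen. Of the most abundant factors of the list, Tbx15, Tbx18 and Snai2 stayed within 4-fold between passages, Tbx18 narrowly so (log2 fold change -1.99 in DPCs).

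The Hox genes, the positional contrast to facial crest, were at 0 in all libraries for 11 of 39, and 19 passed the count minimum. Many of the 19 passed that minimum through high-passage DSCs alone, for example Hoxb3 (202 reads there and 0 elsewhere) and Hoxb6 (169 and 0), which were picked out after their values were seen. Such genes could differ in 1 direction only, so no count of called Hox genes is read here. Hoxb9 had 0 and 15 reads in DPCs at passages 3 and 9 and 21 and 372 in DSCs, and Hoxc10 had 0 and 10 in DPCs and 0 and 125 in DSCs. Both had their highest counts in the library in which Dlx5 and Msx2 were high, but Hoxc10 also passed the minimum only through that library. No likeness to Dlx5 and Msx2 is read from this. Hoxd8, by contrast, had 499 and 541 reads in low- and high-passage DPCs and 55 and 100 in DSCs, and Hoxd3 had 350 and 245 reads in DPCs and 32 and 40 in DSCs. Whether the Hox reads and the homeobox differences come from the same cells was not tested.

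Among 25 measured genes of BMP signalling, which induces Msx and Dlx genes, the median log2 fold change with passage was 0.19 in DPCs and 0.39 in DSCs, with libraries at 0 set to 3 reads. In DPCs 1 of the 25 was past 4-fold as higher and 2 as lower, against 5.58% and 4.36% of background genes. In DSCs it was 2 as higher and 0 as lower, against 2.67% and 1.16%. Sostdc1, lower in DPCs (61 and 0 reads, 0 and 2 in DSCs), passed the count minimum only through low-passage DPCs. Bmp7, higher in DSCs (0 and 51 reads, 9 and 38 in DPCs), passed it only through the passage 9 libraries. Both were named after their values were seen, and neither call is read as a result. The secreted BMP antagonist Grem1 was the most abundant, with 38107 and 39853 reads in low- and high-passage DPCs and 40481 and 104978 in low- and high-passage DSCs. The receptors Bmpr1a and Bmpr2 differed by less than 2-fold between passages in both cell types. The ligand Bmp4 and the direct BMP target Id1 were looked at after their values were seen. Bmp4 had 2104 and 137 reads in low- and high-passage DPCs and 5931 and 5724 in DSCs, while Id1 had 196 and 354 in DPCs and 284 and 948 in DSCs. Msx2 and Id1 thus shared high-passage DSCs as their highest library, and Bmp4 did not differ there from low-passage DSCs by 2-fold. Other genes of the list, also picked after their values were seen, were mixed. The ligand Bmp2 was highest there too, with 24 and 140 reads in DSCs and 41 and 13 in DPCs. By CPM, Id3 was highest in high-passage DSCs (93.4), Id2 in high-passage DPCs (24.6) and Id4 in low-passage DPCs (28.6). Whether BMP signalling had a part in the Msx2 difference was not tested. In the endothelin axis, upstream of Dlx5 in the jaw, 8 of 10 genes were measured, 0 were past 4-fold with passage in DSCs, and 1 was past 4-fold as lower in DPCs, against 4.36% of background genes. That gene was the receptor Ednrb, with 1104 and 124 reads. Its ligand Edn1 had 1374 and 1648 reads in DPCs and 410 and 515 in DSCs. Ednrb and Edn1 were chosen after their values were seen. Whether the endothelin axis had a part in the Dlx5 difference was not tested.

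Of 13 bone and cartilage genes, 10 were measured. With passage, 4-fold was passed by 1 as higher and 3 as lower in DPCs, and by 2 as higher and 3 as lower in DSCs. The background shares were 5.58% and 4.36% in DPCs and 2.67% and 1.16% in DSCs. Among those lower in DSCs, Col2a1 had 203 and 2 reads there and 0 in DPCs. Sp7 had 38 and 9 reads in DSCs and 3 and 8 in DPCs. Both, named after their values were seen, passed the count minimum only through low-passage DSCs, which fixed their direction. The count of lower calls in DSCs is therefore not read as a result. Spp1, a bone matrix phosphoprotein, was past 4-fold higher in both cell types (39849 and 204612 reads in DPCs, 71137 and 404313 in DSCs), and the cartilage proteoglycan Acan was past 4-fold lower in both (108 and 22, 1300 and 79). Runx2, the master factor of bone formation, had 1466 to 3178 reads and stayed within 2-fold between passages. Col10a1, a collagen of hypertrophic cartilage, had 2863 and 276 reads in DPCs and 1526 and 10483 in DSCs, so it was highest in high-passage DSCs, as Dlx5 was. The late bone genes Ibsp and Bglap, named after their values were seen, had 0 and at most 3 reads.

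Markers of other cell types were set beside the members. Summed over 8 keratinocyte markers, the level was 0.679 and 5.52 CPM in low- and high-passage DPCs and 2.72 and 51.4 CPM in low- and high-passage DSCs. In high-passage DSCs nearly all of this was Dsp, a desmosome gene with 10, 184, 84 and 2307 reads, while Krt5, Krt14, Krt15 and Cdh1 were at 0. The 6 hair matrix and shaft markers summed to at most 4.71 CPM in a library, with Krt31 and Krt35 at 0 and Krt85 not in the table. Of 5 melanocyte markers 4 were at 0 throughout. The 5 Schwann cell markers summed to 7.96 and 3.65 CPM in low- and high-passage DPCs and to 14.5 and 5.09 CPM in DSCs, and Sox10 and Foxd3 were detected at low passage only. The 4 endothelial markers summed to 2.42 and 0.111 CPM in DPCs and 5.48 and 0.987 CPM in DSCs, the 4 immune markers to 18.7 to 25.7 CPM, and the 5 skeletal muscle markers to 40.6 and 0.362 CPM in DPCs and 48.5 and 24.0 CPM in DSCs. Nearly all of the last sum was the actin gene Acta1, with Myod1 and Myf5 at 0 throughout and Myog at no more than 2 reads. Lum and Dcn, small proteoglycans of fibroblasts, had their highest counts in high-passage DSCs with Dlx5, at 109 reads against 0 to 8 and at 89544 reads against 3292 to 5494. Lum passed the count minimum only through that library. Of the other fibroblast markers only Thy1 was highest there by CPM. Col1a1, Col1a2, Pdgfrb and Vim were highest in low-passage DSCs, Col3a1 in low-passage DPCs and Pdgfra in high-passage DPCs. Among the other lists, summed levels were 246 to 556 CPM for 8 dermal papilla markers, 3440 to 9200 CPM for 4 dermal sheath markers and 7460 to 27600 CPM for 9 fibroblast markers, each lowest in high-passage DPCs. At passage 3 the papilla sum was 361 CPM in DPCs and 556 CPM in DSCs, and the sheath sum was 9200 and 7360 CPM, so neither sum followed the cell type labels there. The part of these markers in the differences of the members was not tested.

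The genes whose profile over the 4 libraries was nearest to that of a member were listed for the 3 members with the widest range, over 12191 or 12192 genes that averaged 100 or more raw reads. A profile of 4 libraries places few limits on a match, so these lists describe likeness and no more. Nearest to Dlx5 were the ephrin receptor gene Epha1 (135, 160, 183 and 2460 reads; root mean square distance 0.150 on the log2 scale), Chodl, Dcn and Gm13889. All were highest in high-passage DSCs. Nearest to Alx1 was Eps8l1 (111, 348, 68 and 70 reads, distance 0.045), followed by Rai2, the imprinted gene Peg3 and Cacnb2, all highest in high-passage DPCs. Nearest to Dlx1 were Apoe (530, 485, 1236 and 1864 reads, distance 0.062), Hmox1, Alkbh4 and Fmn1, all higher in both DSC libraries than in both DPC libraries.

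**Figure D5:**
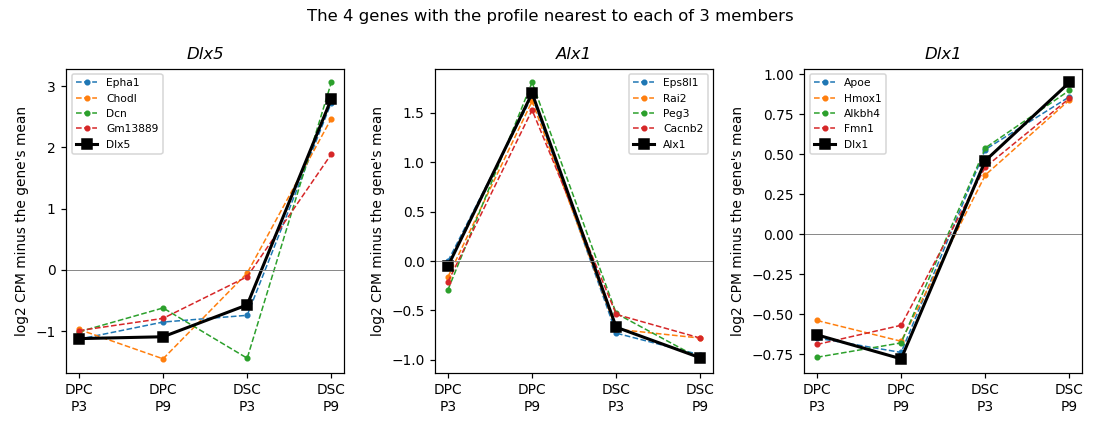
log2 CPM minus each gene's own mean over the 4 libraries (y axis) for Dlx5, Alx1 and Dlx1 (black squares) and the 4 genes nearest to each (coloured dashed lines), in DPCs and DSCs at passage 3 (P3) and passage 9 (P9). The Dlx5 profile is 2.79 above its mean in high-passage DSCs and below it elsewhere, and the Alx1 profile is 1.70 above its mean in high-passage DPCs.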

How the data were processed

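RNA of cultured mouse whisker DPCs and DSCs at passages 3 and 9 was measured by RNA-seq, with 1 library a group. The raw counts per gene of all 4 libraries were used as deposited in 1 table, and the deposited FPKM values, normalised by the authors to transcript length and library size, came from 1 table for each library. The labels name a TruSeq library kit, while the methods of the study name a NEBNext Ultra kit. The submitters' processing notes name Bowtie 0.12.2 and the builds mm8 and mm9, but the gene positions in the FPKM tables equal GENCODE M21 on GRCm38, which was used for coordinates and sequence. The counting tool and its strand setting are not given in the sources used here. Rows were matched to samples by their column names, and 0 columns of other samples were found.

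Library sizes were scaled with TMM factors (edgeR 4.0.16, R 4.3.3) computed over genes averaging 10 or more raw reads. log2 fold changes used a prior count of 2. With 1 library a group no p-value was computed, and a gene was called where it differed by 4-fold, the threshold of the study, or by 2-fold. Exact Clopper-Pearson intervals of 95% were taken from the share of reads between 2 libraries (SciPy 1.17.1), and differences of 2 fold changes had Wald intervals from the 4 counts. They cover counting error only. The steps were checked on simulated counts. Alternatives were total counts, DESeq2 1.42.0 size factors, upper quartile scaling, prior counts of 0.5 and 10, other count minimums, the FPKM on the log2 scale with a pseudocount of 0.1 or 1, and halved counts.

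The homeobox was placed by its conserved helix residues in the coding sequence of the principal transcript, and 50-base windows of member transcripts were searched in all GENCODE M21 transcripts on both strands. The 9 members and the gene lists were chosen with earlier results of these data known. From each list the text names genes past 4-fold the same way with passage in both cell types and up to 4 others of high mean count; names outside this rule are said to be chosen after their values were seen. Lists covered family relatives, facial transcription factors, Hox genes, BMP and endothelin signalling, bone and cartilage genes, and cell type markers, of which those named were picked after their values were seen. Nearest profiles were ranked by the root mean square distance of centred log2 CPM. The 4 nearest genes are named for each, and some genes and sequences are not reported here.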

Additional observations from a re-analysis of the deposited data

Results flagged for a closer look

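The passage change went opposite ways in DPCs and DSCs for 4 members, and since each group had 1 library the difference was not tested. For Msx2 the change in DPCs minus that in DSCs was -1.69 on the log2 scale, from 381 and 309 reads in low- and high-passage DPCs and 264 and 857 in low- and high-passage DSCs. For Alx1 it was 2.06, from 92 and 307 reads in DPCs and 61 and 59 in DSCs, where the DSC change lay within counting error. For Prrx2 it was -0.59, with a DPC change (-0.07) within counting error, and for Dlx1 it was -0.64, with both changes within counting error.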

How the results depend on the processing

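No paired analysis was possible because each group had 1 library. Of 252 log2 fold changes of members under 7 alternatives, 221 stayed within the counting interval of the value reported, 31 moved outside it, and none with an interval clear of 0 changed sign. The FPKM with a pseudocount of 1 moved 16 of 36 and compresses low genes by construction: Dlx5 with passage in DSCs came to 1.56, and Alx1 between cell types at passage 9 to 1.52. With a pseudocount of 0.1, Dlx1 at passage 3 was -0.17 and Dlx2 -0.61. Total counts moved 6 of 36, all of Prrx1, Prrx2 or Alx4 between cell types. With DESeq2 size factors, upper quartile scaling and a prior count of 0.5, all 36 stayed within their intervals.

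The number of members past 4-fold depended on thresholds. With a mean count of at least 100, which removes Dlx5 and Dlx1, it was 0 with passage in DSCs and 1 between cell types at passage 9. At 2-fold it was 1 with passage in DPCs, 2 with passage in DSCs, 1 between cell types at passage 3 and 7 at passage 9. Intervals excluded 0 for 26 of 36 member fold changes, and for 23 with halved counts. Counts of all genes past 4-fold without a filter on low counts were 2623 and 1200 with passage in DPCs and DSCs, and 1323 and 1758 between cell types at passages 3 and 9. With a mean count of at least 100 they were 755, 207, 301 and 466, and in the reported setting 1663, 640, 719 and 1074. With a prior count of 10 they were 339 with passage in DSCs and 400 and 712 between cell types at passages 3 and 9, and with the FPKM 350 with passage in DSCs and 392 between cell types at passage 3. Dlx1 and Dlx5 had 8 to 15 reads in DPCs, and that depth limits what can be said of them there.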
